A study of Oryza sativa Japonica Group with 4 samples.

Results

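The HSP90 and HSP100/ClpB chaperones of rice are described here in endosperm, the starch-storing tissue of the grain, under control and high temperature. The members were chosen by gene ID, 4 listed as HSP90 genes and 3 as ClpB genes, out of 56797 gene IDs in the deposited table. They have 10 transcript models, 7 of HSP90 genes and 3 of ClpB genes, out of 67393 models in the table. All 10 passed the filter on low counts described below, which 27358 transcript models passed.

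The study sequenced poly(A) RNA from grains of the japonica cultivar Nipponbare at the grain-filling stage in 4 RNA-seq libraries. The plants of both groups grew at control temperature until 5 days after pollination, carry no transgene or treatment other than temperature in the labels, and were sampled 5 days later. The control group (replicates 1 and 2) stayed at 28°C for the 12 h day and 22°C for the 12 h night, and the high temperature group (replicates 1 and 2) was moved to 35°C and 28°C. Fresh seeds were collected and RNA was extracted from endosperm, according to the study's methods, and neither these nor the labels say whether replicates came from separate plants, so the p-values below measure the spread between these libraries, which may be technical.

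HSP90 is an ATP-driven chaperone that acts late in folding and holds kinases, receptors and other client proteins in a form that can be activated. Plants have HSP90 genes for the cytosol and for organelles, and among the cytosolic genes some are expressed at all times while others are switched on by heat. ClpB, called HSP100 or HSP101 in plants, is a ring-shaped ATPase that pulls single protein chains out of aggregates and hands them to HSP70 for refolding, and the cytosolic form is required for acquired heat tolerance in Arabidopsis and maize.

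The deposited descriptions bear on the labels only in part. LOC_Os05g44340 is described as heat shock protein 101, and LOC_Os02g08490 and LOC_Os03g31300 as chaperone protein clpB 1. The listed HSP90 genes (LOC_Os04g01740, LOC_Os08g39140, LOC_Os09g30412 and LOC_Os12g32986) are each described as a putative heat shock protein, with neither HSP90 nor a cell compartment in the wording, so their place in the cytosol was not tested. None of the 7 IDs matched the gene table supplied as reference (0 matches), so no position or sequence is given for them.

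Depth and tissue can be stated briefly. The libraries held 6395533 to 11492692 counted reads, and a pair of very abundant transcripts (LOC_Os09g00999.1 and LOC_Os09g01000.1) took 8.51% to 35.2% of them, so levels are given after TMM normalization, a scaling between libraries that limits the influence of such transcripts. Glutelin transcripts, the main storage protein messages of rice endosperm, summed to 224909 to 376931 CPM (read counts scaled by the normalized library size). Prolamin transcripts, the other storage protein list, summed to 57257 and 116583 CPM in the controls and 36776 and 42415 at high temperature, so both high temperature libraries were below the controls. The median log2 fold change of the 29 prolamin models was -1.27, and the part of this shift in the results below was not tested. Oleosin transcripts, which mark embryo and aleurone, summed to 794 and 1288 CPM in the controls and 897 and 1083 at high temperature. Transcripts of light-harvesting proteins and of the Rubisco small subunit, which mark green pericarp, summed to 1354 and 1128 CPM in the controls, and to 1915 (replicate 1) and 970 (replicate 2) at high temperature, with reads in all 34 models of that list. In whole tissue, fewer cells of a type and less RNA per cell cannot be told apart.

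The comparison asks how the messages of these chaperones differed after 5 days at high temperature. LOC_Os04g01740, an HSP90 gene barely detected in the controls, had by far the widest difference of the 7, with its mean 81.1 times higher at high temperature. The HSP90 gene LOC_Os08g39140 and the HSP101 gene LOC_Os05g44340 were 2.19 and 2.56 times higher in the mean, and LOC_Os02g08490, a ClpB gene, 1.67 times. The most abundant member, the HSP90 gene LOC_Os09g30412, was 1.38 times higher, LOC_Os12g32986 1.27 times and the ClpB gene LOC_Os03g31300 1.19 times. These are ratios of mean TMM-normalized CPM, with n = 2 libraries per temperature.

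All 10 models had a log2 fold change above 0, against 50.2% of all transcripts tested. After Benjamini-Hochberg adjustment over the 27358 transcripts, 0 of the 10 passed 0.05 in edgeR's quasi-likelihood test, and neither did any other transcript (0.0%). At an unadjusted p under 0.05 (edgeR), 7 of the 10 models, from 4 of the 7 genes, were higher at high temperature, against 4.15% of all transcripts tested. At the same threshold 0 of the 10 were lower, against 2.79% of all transcripts. A log2 fold change of at least 1 was found for 6 of the 10, against 3.93%. The high temperature libraries both exceeded both controls for 8 of the 10 models (5 of the 7 genes), against 19.1% of all transcripts. The median log2 fold change was 1.05 over the 10 models and 0.74 over 1 model per gene, against 0.00 over all transcripts tested, whose 5th and 95th percentiles were -0.78 and 0.91. LOC_Os08g39140 has 4 models, which may share reads, so the counts over models weigh that gene more heavily than the others. The members were chosen with earlier results of these data known, so the shares over all transcripts are given for description only. With DESeq2, 1 of the 10 models had an adjusted p under 0.05, LOC_Os04g01740.1, as did 0.194% of all transcripts in the upward direction. The same 1 model passed with library totals alone (0.113% of all transcripts) and with limma at pseudocounts of 1 and 0.1 (0.201% and 0.256%).

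**Figure D1:**
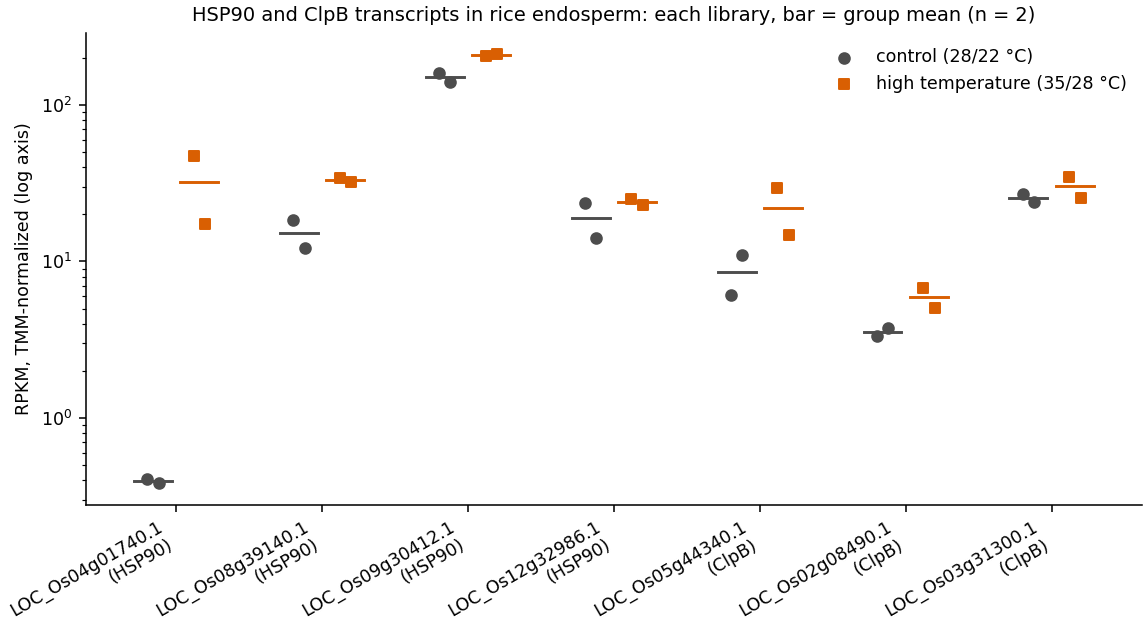
Level of the most abundant transcript model of each of the 7 genes, in TMM-normalized RPKM on a log axis, with a point per library and a bar at the mean of each group (n = 2). LOC_Os04g01740.1 goes from 0.410 and 0.384 in the controls to 47.1 and 17.3 at high temperature, while LOC_Os12g32986.1 and LOC_Os03g31300.1 overlap between the groups.

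LOC_Os04g01740, whose only model LOC_Os04g01740.1 is 2584 bases long, is an HSP90 member described as a putative heat shock protein. It had 16 reads in control replicate 1 and 6 in control replicate 2, while high temperature replicate 1 had 843 and replicate 2 had 321. These counts correspond to 1.06 and 0.993 TMM-normalized CPM in the controls and 122 and 44.8 at high temperature. The control libraries lay almost together after TMM scaling (factors 1.32 and 0.756). With 16 and 6 reads the counting error is wider than their gap, so this closeness does not measure the spread between controls. The groups were far apart, and the lower of the high temperature libraries was 42.3 times the higher of the controls. The high temperature libraries differed from each other as well, replicate 1 having 2.71 times the CPM of replicate 2. On the log2 scale the fitted difference was 6.31 with a standard error of 0.60 (edgeR, adjusted p = 0.119), with a 95% interval of the fold from 30.4 to 207. Its unadjusted p of 5.44e-06 (edgeR) was rank 1 of the 27358 transcripts, and its log2 fold change was rank 5.

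The adjusted p of LOC_Os04g01740.1 depended on the fit, while its direction did not. It was 6.94e-23 with DESeq2 and 4.41e-35 in edgeR without the filter on low counts, where 0.549% were. In 8 of 16 alternative fits it was under 0.05, and over all 16 it ran from 4.41e-35 to 0.245. Leaving out high temperature replicate 1 lowered the log2 fold change to 5.42 (adjusted p = 0.167, edgeR), and leaving out replicate 2 raised it to 6.83 (adjusted p = 0.0527). High temperature replicate 1 is also the library with the highest sum of green pericarp markers (1915 CPM), and the part of that tissue in the gap between the replicates was not tested.

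LOC_Os08g39140, also an HSP90 member, has 4 transcript models of 1936 to 3628 bases. The most abundant, LOC_Os08g39140.1, had 711 and 188 reads in the controls and 609 and 595 reads at high temperature, or 47.1 and 31.1 CPM against 87.8 and 83.1 CPM. The high temperature libraries lay close together and higher than either control, the lower at 1.76 times the higher control. Its log2 fold change was 1.12 ± 0.33 (standard error), with an adjusted p of 0.573 (edgeR) and a 95% interval of the fold from 1.30 to 3.66. The other 3 models had log2 fold changes of 1.01 to 1.09. This is not counted as separate evidence, because models of a gene can share exons and so reads, which was not tested here. Leaving out each library in turn gave 0.86 to 1.45 for LOC_Os08g39140.1.

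LOC_Os09g30412 carried most of the reads of the 4 listed HSP90 genes in every library. Its model LOC_Os09g30412.1 (2613 bases) had 419 and 364 CPM in the controls and 533 and 552 CPM at high temperature. The groups did not overlap, but the gap was narrow, with the lower high temperature library at 1.27 times the higher control. The log2 fold change was 0.47 ± 0.38 (standard error; edgeR, adjusted p = 0.862), and the 95% interval of the fold, from 0.757 to 2.53, includes no difference as well as a rise above 2-fold.

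Whether the reads of LOC_Os09g30412 belong to it alone was not tested. A pair of further gene IDs that are not members, LOC_Os09g30418 and LOC_Os09g30439, carry the description of a putative heat shock protein and nearly the same counts, as was seen only after the values were examined. In control replicate 1 the counts of the 3 genes were 6332, 7348 and 7408, in control replicate 2 they were 2202, 2380 and 2409. In high temperature replicate 1 they were 3696, 3557 and 3570, and in replicate 2 they were 3953, 4233 and 4118. The highest of the 3 exceeded the lowest by 3.91% to 17.0% in a library. The study describes its counts as based on uniquely mapped reads, and the sequences of these genes were not compared here. LOC_Os09g30418.1 and LOC_Os09g30439.1 had log2 fold changes of 0.33 and 0.29 (standard errors 0.39 and 0.39).

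LOC_Os12g32986, the last HSP90 member, has a single model of 2947 bases. LOC_Os12g32986.1 had 69.8 and 41.5 CPM in the controls and 73.9 and 67.6 CPM at high temperature. Control replicate 1 lay between the high temperature libraries, so the groups overlapped, and the controls differed from each other by 1.68 times. The log2 fold change was 0.34 ± 0.34 (standard error), with an adjusted p of 0.901 (edgeR) and a 95% interval of the fold from 0.734 to 2.19. Its size rests on which control is used, at 0.02 when control replicate 2 was left out and 0.76 when control replicate 1 was.

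**Figure D2:**
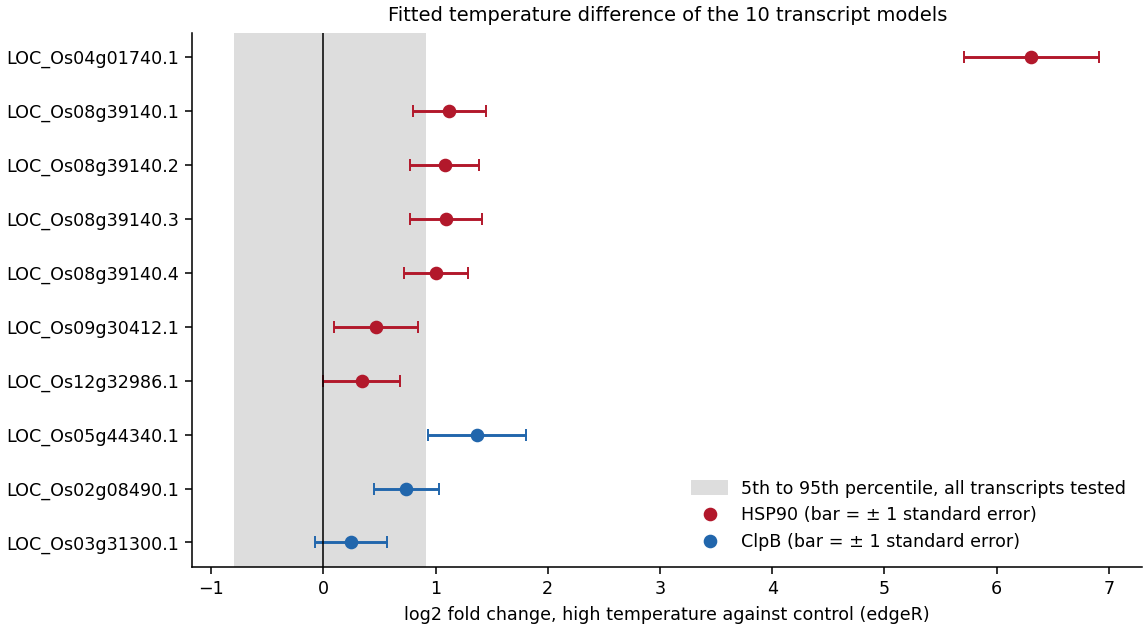
Difference between temperatures (log2 fold change, edgeR, positive where high temperature is higher) for the 10 transcript models, with bars of 1 standard error, over a grey band from the 5th to the 95th percentile of all transcripts tested (-0.78 to 0.91). Of the 10 points, 6 lie to the right of the band (those of LOC_Os04g01740, LOC_Os08g39140 and LOC_Os05g44340) and 4 lie within it.

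Among the ClpB genes, LOC_Os05g44340 (HSP101, model LOC_Os05g44340.1 of 3264 bases) had 303 and 218 reads in the controls and 666 and 343 reads at high temperature. After TMM normalization these were 20.1 and 36.1 CPM against 96.1 and 47.9 CPM. The groups did not overlap, yet replicates of each group were spread, control replicate 2 at 1.80 times control replicate 1 and high temperature replicate 1 at 2.01 times replicate 2. The log2 fold change was 1.37 ± 0.44 (standard error), with an adjusted p of 0.599 (edgeR) and a 95% interval of the fold from 1.29 to 5.17. It was 0.78 without high temperature replicate 1. Without control replicate 2 it was 1.84, the edgeR adjusted p was 0.0252 and 1.04% of transcripts were called as higher. Without the filter on low counts the adjusted p was 0.0333 (edgeR). With libraries paired across replicate numbers, an alternative described in the closing section, it was 0.00187, and 6 of the 10 models passed against 2.02% of all transcripts. In the other 13 of its 16 alternatives LOC_Os05g44340.1 did not pass, with an adjusted p of 0.496 in DESeq2 and 1.0 in edgeR with the replicate block.

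LOC_Os02g08490, described as chaperone protein clpB 1, was the least abundant ClpB gene. LOC_Os02g08490.1 (3313 bases) had 167 and 75 reads in the controls and 155 and 120 reads at high temperature, which scaled to 11.1 and 12.4 CPM against 22.4 and 16.8 CPM. The groups did not overlap and the controls lay within 1.12 times of each other. Its log2 fold change was 0.74 ± 0.29 (standard error; edgeR, adjusted p = 0.686), from 0.52 to 0.91 with each library left out, and the lowest adjusted p over its 16 alternatives was 0.122.

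LOC_Os03g31300, with the same description, was the most abundant ClpB gene. LOC_Os03g31300.1 (3575 bases) had 96.5 and 85.1 CPM in the controls and 124 and 91.2 CPM at high temperature. High temperature replicate 2 lay between the controls, so the groups overlapped. The log2 fold change was 0.25 ± 0.32 (standard error), with an adjusted p of 0.927 (edgeR) and a 95% interval of the fold from 0.708 to 1.98. It was 0.0039 without high temperature replicate 1.

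**Figure D3:**
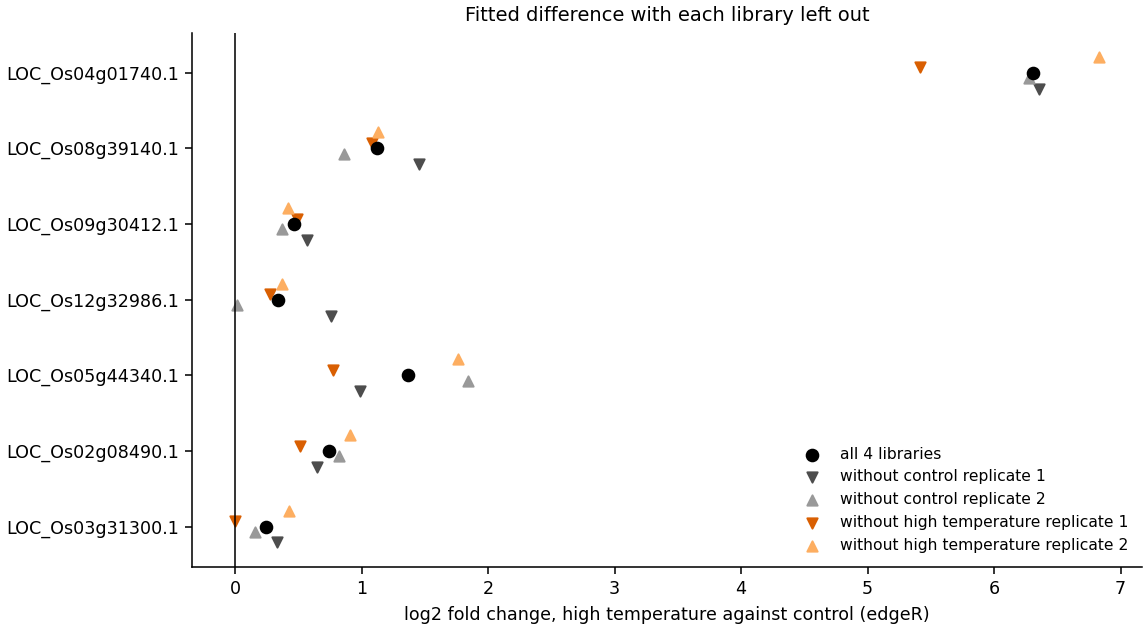
Difference between temperatures (log2 fold change, edgeR) for 1 model per gene, with all 4 libraries (black) and with each library left out (triangles). No point lies below 0, LOC_Os04g01740.1 stays between 5.42 and 6.83, and LOC_Os12g32986.1 and LOC_Os03g31300.1 reach 0.02 and 0.0039.

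Levels of different genes can be set side by side as RPKM, the CPM per kilobase of transcript. The order below counts 1 model per gene, and the place of LOC_Os08g39140, with 4 models, depends on this. With its models summed it had 891 and 253 reads per kilobase in the controls, against 358 and 85.2 for LOC_Os12g32986. In the controls the order of mean TMM-normalized RPKM was LOC_Os09g30412.1 (150.0 ± 14.8, SD, n = 2), LOC_Os03g31300.1 (25.4 ± 2.26), LOC_Os12g32986.1 (18.9 ± 6.78), LOC_Os08g39140.1 (15.2 ± 4.40), LOC_Os05g44340.1 (8.60 ± 3.47), LOC_Os02g08490.1 (3.54 ± 0.289) and LOC_Os04g01740.1 (0.397 ± 0.0182). Of these neighbours, LOC_Os12g32986.1 and LOC_Os08g39140.1 overlapped between libraries, and LOC_Os03g31300.1 and LOC_Os12g32986.1 nearly touched (23.8 against 23.7). At high temperature LOC_Os09g30412.1 stayed first (207.6 ± 5.07) and LOC_Os02g08490.1 became last (5.90 ± 1.20). The 5 genes between them closed up, with LOC_Os08g39140.1 at 33.3 ± 1.32, LOC_Os04g01740.1 at 32.2 ± 21.0, LOC_Os03g31300.1 at 30.1 ± 6.53, LOC_Os12g32986.1 at 24.0 ± 1.51 and LOC_Os05g44340.1 at 22.1 ± 10.4. The spread of LOC_Os04g01740.1 (17.3 to 47.1 RPKM) covered the means of the other 4, so its place among them is not settled by these libraries.

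The position of LOC_Os04g01740.1 among all transcripts tested moved with temperature. By RPKM it ranked 26279 and 26303 of 27358 in the controls, 767 in high temperature replicate 1 and 2467 in replicate 2. LOC_Os05g44340.1 ranked 7355 and 4206 in the controls and 1301 and 3005 at high temperature. LOC_Os09g30412.1 ranked between 142 and 222 in all 4 libraries.

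**Figure D4:**
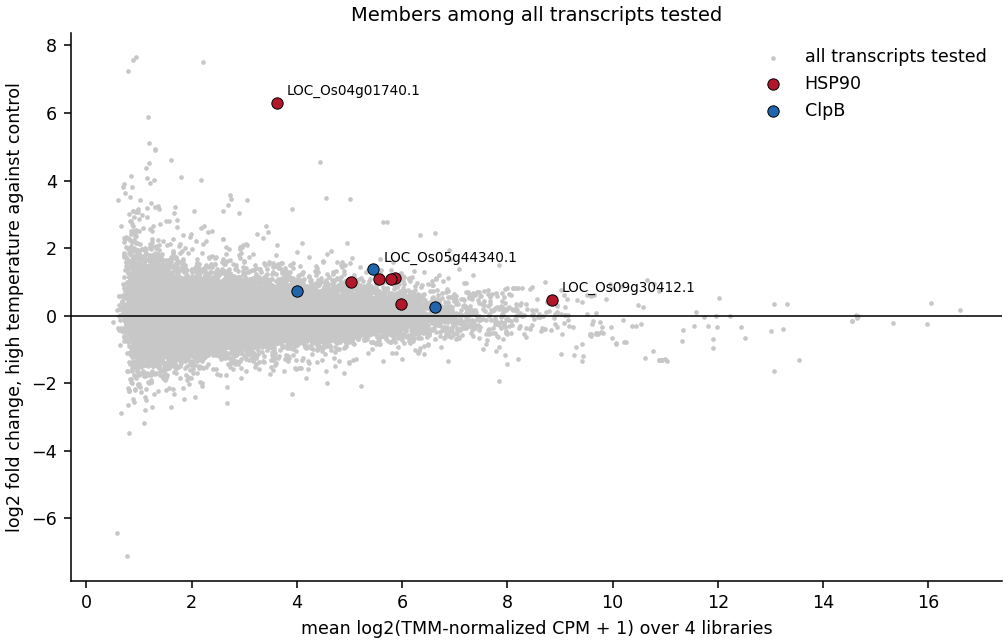
Mean log2(TMM-normalized CPM + 1) over the 4 libraries (horizontal) against log2 fold change between temperatures (vertical) for all 27358 transcripts tested (grey) and the members (HSP90 red, ClpB blue), with 3 members named. LOC_Os04g01740.1 stands above the cloud at 6.31, and the other 9 models lie between 0.25 and 1.37.

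Summed over 1 model per gene, the HSP90 members had 203 and 166 RPKM in the controls and 310 and 284 RPKM at high temperature. Of the difference of 113 RPKM between the means, LOC_Os09g30412.1 made up 51.2%, LOC_Os04g01740.1 28.2%, LOC_Os08g39140.1 16.0% and LOC_Os12g32986.1 4.53%. These parts depend on the libraries and models counted. With each library left out, LOC_Os09g30412 made up 42.9% (without high temperature replicate 2) to 61.6% (without replicate 1), and LOC_Os04g01740 37.1% and 17.1% with the same libraries left out. LOC_Os12g32986 made up 0.329% when control replicate 2 was left out and 7.55% when control replicate 1 was. With RPKM summed over all models of a gene, LOC_Os09g30412 made up 38.2%, LOC_Os08g39140 37.4% and LOC_Os04g01740 21.1%. The ClpB members summed to 36.5 and 38.6 RPKM in the controls and 70.9 and 45.2 RPKM at high temperature, and LOC_Os05g44340.1 made up 65.5% of the difference of 20.5 RPKM. Without high temperature replicate 1 the ClpB difference was 7.69 RPKM, and the part of LOC_Os05g44340.1 was 56.5% to 78.9% with each library left out.

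The make-up of the HSP90 reads within a library does not depend on scaling between libraries. LOC_Os04g01740 made up 0.165% of the reads of the 4 listed HSP90 genes in control replicate 1 (95% Wilson interval 0.101% to 0.267%) and 0.193% in control replicate 2 (0.0885% to 0.420%). It made up 12.0% in high temperature replicate 1 (11.3% to 12.8%) and 4.79% in replicate 2 (4.31% to 5.33%). The share of LOC_Os09g30412 was 65.1% and 70.8% in the controls and 52.6% and 59.0% at high temperature, and that of LOC_Os08g39140, summed over its models, was 23.9% and 20.9% against 28.1% and 29.0%. LOC_Os12g32986 held 10.8% and 8.07% against 7.28% and 7.23%. The groups did not overlap for any of these 4 shares, which must sum to 100% and so are not independent. By CPM, the groups were also apart for many transcripts, with high temperature above for 19.1% and below for 17.7%. No such background was computed for shares. The models of LOC_Os08g39140 may share reads, in which case its sum counts some reads more than once. With 1 model per gene its share was 8.76% and 7.10% in the controls and 10.8% and 11.1% at high temperature. The intervals cover counting error only, and an exact permutation test of 2 against 2 libraries cannot go below p = 0.33. With LOC_Os09g30418 and LOC_Os09g30439 added to the sum, LOC_Os04g01740 held 0.0654% and 0.0760% in the controls and 5.96% and 2.13% at high temperature. In that sum the groups overlapped for LOC_Os09g30412 (25.9% and 27.9% against 26.1% and 26.3%) and for LOC_Os12g32986 (4.31% and 3.18% against 3.62% and 3.22%).

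**Figure D5:**
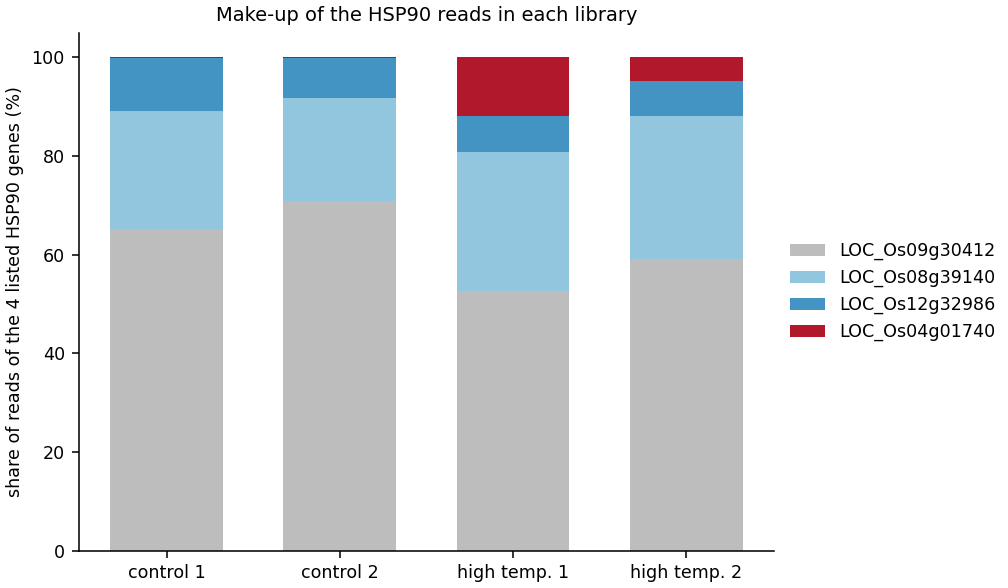
Share of the reads of the 4 listed HSP90 genes taken by each gene (percent, models of a gene summed) in each library. The red segment, LOC_Os04g01740, is 0.165% and 0.193% in the controls, then 12.0% (replicate 1) and 4.79% (replicate 2) at high temperature, and the grey segment, LOC_Os09g30412, is smaller in both high temperature libraries.

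Relations between members within a library showed the same unevenness. Per kilobase, LOC_Os04g01740.1 had 0.0223 and 0.0317 times the level of LOC_Os08g39140.1 in the controls. It had 1.37 times that level in high temperature replicate 1 and 0.536 times in replicate 2. LOC_Os08g39140.1 is 1 of 4 models of its gene. With these summed, LOC_Os04g01740 and LOC_Os08g39140 had 326 and 762 reads per kilobase in high temperature replicate 1, and 124 and 744 in replicate 2. Relative to HSP101 (LOC_Os05g44340.1), LOC_Os04g01740.1 had 0.0667 and 0.0348 times the level in the controls and 1.60 and 1.18 times at high temperature. Within the ClpB genes, whose shares were computed after the values were seen, LOC_Os05g44340 held 15.7% and 27.0% of the reads in the controls and 39.6% and 30.7% at high temperature, while LOC_Os02g08490 held 8.67% to 10.8% in all 4 libraries.

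Other genes with the description of a putative heat shock protein had smaller differences than LOC_Os04g01740. Of 8 such models from 6 genes that are not members, 6 had a log2 fold change above 0 (50.2% of all transcripts), and the median was 0.26. In 5 the high temperature libraries both exceeded both controls (19.1% of all transcripts). At an unadjusted p under 0.05 (edgeR) 0 were higher and 0 lower, against 4.15% and 2.79% of all transcripts. The most abundant of the genes outside LOC_Os09g30418 and LOC_Os09g30439 was LOC_Os06g50300, whose model LOC_Os06g50300.1 had 137 and 97.8 CPM in the controls and 229 and 157 CPM at high temperature (log2 fold change 0.71, standard error 0.37). The one other gene described by the word hsp90, LOC_Os09g36420, had 14 and 6 reads in the controls and 8 and 8 at high temperature (log2 fold change 0.25, standard error 0.54).

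Co-chaperones of HSP90 were found by words in the descriptions. AHA1, the activator of the HSP90 ATPase, speeds its cycle in yeast and human cells, proteins with a CS domain include p23 and SGT1, which bind HSP90, and RAR1 works with SGT1 and HSP90 in plant disease resistance. The word p23 also matched 6 models of proteases whose names contain these letters (such as OsPOP23, LOC_Os12g18860.1, log2 fold change 0.62), and these are left out of the following counts. Of the 15 remaining models, all tested, 10 had a log2 fold change above 0 (50.2% of all transcripts), with a median of 0.45, and in 6 the high temperature libraries both exceeded both controls (19.1% of all transcripts). At an unadjusted p under 0.05 (edgeR) 3 were higher and 0 lower (4.15% and 2.79% of all transcripts). None had an adjusted p under 0.05 in the reported edgeR fit, DESeq2 or limma. With the crossed pairing edgeR called 1 of the 19 models of the list with p23 matches, against 828 of all 27358 transcripts. The 3 were the AHA1 homologues LOC_Os02g04650.1 (log2 fold change 1.03, standard error 0.29) and LOC_Os08g36150.2 (0.76, standard error 0.31) and the CS domain model LOC_Os02g51000.1 (0.86, standard error 0.30), of which the last 2 were named after their values were seen. The 2 most abundant of these genes had 0.45 (LOC_Os06g12530.1, CS domain, standard error 0.33) and -0.35 (LOC_Os02g33180.1, RAR1, standard error 0.30).

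The other Clp genes, mostly subunits of the Clp protease, which unfolds and degrades proteins rather than rescuing them, had lower values at high temperature in more models than higher ones, a contrast from the ClpB members that was not tested. Of 31 tested models (33 in the table), 8 had a log2 fold change above 0 (50.2% of all transcripts) and the median was -0.22. The high temperature libraries were both below both controls for 11 of the 31, against 17.7% of all transcripts, and above both for 4, against 19.1%. At an unadjusted p under 0.05 (edgeR) 3 were higher and 3 lower (4.15% and 2.79% of all transcripts). None had an adjusted p under 0.05 in the reported edgeR fit, DESeq2 or limma. When low counts were not filtered out, 3 of the 33 models passed in edgeR, against 365 of all 44411 transcripts. The crossed pairing gave 3 of 31 models, against 828 of all 27358 transcripts (edgeR). The most abundant were the chloroplast clpA homologues LOC_Os04g32560.2 (log2 fold change -0.34, standard error 0.29) and LOC_Os12g12850.1 (-0.60, standard error 0.34) and the clpX subunit LOC_Os01g66330.1 (-0.69, standard error 0.27). A further clpX gene, LOC_Os05g45750, named after its values were seen, had the opposite sign in both of its models (1.44 and 1.43, standard errors 0.35 and 0.34).

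HSA32, a protein that in Arabidopsis and rice acts with HSP101 to prolong acquired heat tolerance, is represented by LOC_Os06g46900, described as phosphosulfolactate synthase-related. Its most abundant model, LOC_Os06g46900.1, had 12.9 and 8.94 CPM in the controls and 19.5 and 17.5 CPM at high temperature. Its log2 fold change was 0.74 ± 0.30 (standard error; edgeR, adjusted p = 0.698). In all 4 of its models the high temperature libraries both exceeded both controls, against 19.1% of all transcripts. These are models of 1 gene and so not separate evidence. HSP70 is the partner of ClpB in disaggregation, and the list used here takes all DnaK family models whatever their cell compartment, so it is not a list of ClpB partners. Of its 31 tested models, 8 were higher and 1 lower at an unadjusted p under 0.05 (edgeR), against 4.15% and 2.79% of all transcripts. None passed the adjusted threshold in the reported edgeR fit or DESeq2. Limma called 1 of 31 at either pseudocount, against 59 (pseudocount 1) and 78 (pseudocount 0.1) of all 27358 transcripts. When low counts were kept, 2 of 39 models passed in edgeR, against 365 of all 44411 transcripts. The crossed pairing gave 6 of 31 models, against 828 of all 27358 transcripts (edgeR). The most abundant were LOC_Os02g02410.1, LOC_Os12g14070.1 and LOC_Os11g47760.1, with log2 fold changes of 0.74, -0.14 and 0.80 (standard errors 0.55, 0.48 and 0.37).

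The transcripts whose profile over the 4 libraries lay nearest to that of a member were found by the Euclidean distance of log2(TMM-normalized CPM + 1) after each transcript's mean was subtracted, over 1 model per gene that is not a member. For LOC_Os04g01740.1 the nearest 3 were all described as hsp20/alpha crystallin family proteins, small heat shock proteins that bind unfolding proteins, LOC_Os04g36750.1 (distance 1.30), LOC_Os11g13980.1 (1.61) and LOC_Os01g08860.1 (2.01). LOC_Os04g36750.1 had 3.71 and 5.30 CPM in the controls and 162 and 44.8 CPM at high temperature. LOC_Os01g08860.1 had 6.62 and 6.62 CPM against 97.4 and 51.0 CPM. LOC_Os11g13980.1 had 2 and 1 reads in the controls and 358 and 41 at high temperature. It passed the filter on low counts only through the high temperature libraries. A like profile here means few control reads and many at high temperature, and these distances are wider than those given next. For LOC_Os05g44340.1 the nearest were an aminotransferase domain protein, LOC_Os05g15530.1 (distance 0.0637), a family 16 glycosyl hydrolase, LOC_Os03g63760.1 (0.141), and a 2Fe-2S iron-sulfur cluster protein, LOC_Os01g64120.1 (0.145), each with 6 to 85 reads per library. With 4 libraries, many transcripts can take a like profile, and the distance is a description of these libraries.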

How the data were processed

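Poly(A) RNA of 4 rice endosperm libraries was measured by RNA-seq on an Illumina instrument. The authors deposited read counts per transcript model without normalization, which the study describes as uniquely mapped reads overlapping exons. The aligner, genome build and annotation release are not given in the sources used here. NA cells were read as 0, and 4 deposited columns headed RPKM were not used. RPKM was computed from the counts and the deposited transcript lengths, with TMM-scaled library sizes.

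Groups and replicate numbers came from the sample labels. Temperatures were compared with edgeR 4.0.16 (TMM, quasi-likelihood test, no block) in R 4.3.3, over transcripts that reached 1 CPM in 2 or more libraries, with Benjamini-Hochberg adjustment over all of them. The standard error is the size of the log2 fold change over the square root of F, and 95% intervals use the test's degrees of freedom. DESeq2 1.42.0, limma 3.58.1 on log2(RPKM + 1), other scalings, other filters and each library left out were alternatives. Shares have Wilson intervals (scipy 1.17.1, Python 3.11.15).

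Named were all models of the members, the 3 most abundant genes of each word list, up to 5 models a list with an adjusted p under 0.05, and the 3 transcripts nearest to LOC_Os05g44340.1 and to LOC_Os04g01740.1. The members and lists were chosen with earlier results of these data known. On simulated data with 27358 transcripts for this comparison, edgeR recovered 76% of transcripts changed by a log2 fold change of 2 and 100% of those changed by 3. The simulation gave all transcripts the same spread between replicates and changed only transcripts above a minimum mean read count. These shares therefore do not say how many true changes the reported fit found. In that fit LOC_Os04g01740.1 did not pass at a log2 fold change of 6.31 (edgeR, adjusted p = 0.119).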

Additional observations from a re-analysis of the deposited data

How the results depend on the processing

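The direction of all 10 members stayed the same in each of the 16 alternative fits that held them, and the median log2 fold change over the models ran from 0.74 to 1.09. The number of models with an adjusted p under 0.05, 0 in the reported fit, was 1 with DESeq2, with library totals alone and with limma at either pseudocount (1 or 0.1), and 2 without the filter on low counts. It ran from 0 to 2 with each library left out. LOC_Os04g01740.1 was the model called in all of these, with log2 fold changes from 4.39 (limma, log2(RPKM + 1)) to 6.36, and LOC_Os05g44340.1 was the other where 2 were called. The number with an unadjusted p under 0.05 was 7 in the reported edgeR fit, against 1900 of all 27358 transcripts in either direction. It was 2 with library totals alone (edgeR), against 662 of 27358. With limma it was 2 at either pseudocount, against 742 and 785 of 27358. In edgeR it was 4 of 7 with 1 model per gene, against 1307 of 19416, and 4 of 7 with models summed, against 1352 of 19303. With 1 model per gene, the share of LOC_Os04g01740 in the HSP90 reads was 14.9% and 6.0% at high temperature. With LOC_Os09g30418 and LOC_Os09g30439 in the sum, an alternative chosen after seeing the data, it was 0.0654% and 0.0760% in the controls and 5.96% and 2.13% at high temperature. The cause of these differences between fits was not tested, apart from the smaller number of models or larger sum that the setting itself brings.

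The replicate numbers are only shared numbers, since the labels tie them to no plant or day. With the replicate block edgeR called 0 of the 10 models and 0 of all transcripts. An unadjusted p under 0.05 was found for 6 of the 10, against 1015 of all 27358 transcripts in either direction. Same-numbered libraries deviated in opposite directions (correlation -0.40 across transcripts), and with the crossed pairing, chosen after seeing the data, 6 of 10 models and 828 of all transcripts were called, against 0 in the reported fit. The other counts over all transcripts were 58 with DESeq2, 33 with library totals alone, 365 without the filter, 59 and 78 with limma at pseudocounts 1 and 0.1, and 0 to 345 with each library left out. In the word lists edgeR with the crossed pairing also called 1 of the 4 HSA32 models. Leaving out the 2 most abundant transcripts, also chosen after seeing the data, called 0 of the 10. Each comparison is limited by having 2 libraries a group, and LOC_Os04g01740.1 rests on 22 control reads in total.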
